A study of Mus musculus with 16 samples.

Results

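Cs, Idh3a, Idh3b, Idh3g, Ogdh, Sucla2, Suclg1, Fh1 and Mdh2 encode enzymes of the mitochondrial tricarboxylic acid cycle, and their mRNA was measured in cells labelled as sorted neutrophils with and without the oxygen sensor PHD2. These 9 members were taken by name from 49585 gene identifiers counted in 16 libraries, and all 9 were found. The cycle oxidises acetyl-CoA in the mitochondrial matrix and passes the electrons on to the respiratory chain. Neutrophils draw most of their ATP from glycolysis, and their mitochondria become fewer as they mature in the marrow. When PHD2 is lost, hypoxia-inducible factors (HIFs) are no longer marked for degradation, and HIF1 is known to raise glycolytic genes and Pdk1, the kinase that shuts pyruvate dehydrogenase and so limits the entry of pyruvate into the cycle.

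Total RNA was sequenced from cells taken from the bones of C57BL/6 mice aged 8 to 12 weeks, with 4 libraries in each of 4 groups. P2KO carried Vav:cre with floxed PHD2 (Egln1), and P2H2KO carried Vav:cre with floxed PHD2 and floxed HIF2 (Epas1). Each line had its own controls (P2WT and P2H2WT), which the labels call wild type without naming an allele. Vav:cre acts in blood-forming cells at large and not in neutrophils alone, so every blood lineage of a deficient mouse can carry the deletion. The titles name separate libraries but not separate mice, so the p-values below measure the spread between these libraries, which may be partly technical.

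The libraries held between 23450746 and 28601284 counts, of which the 9 members took between 0.122% and 0.146%. Counts of Egln1 over the whole gene were not lower in the deficient groups: the P2KO libraries held 49.5 ± 6.36 CPM (counts scaled to library size, mean ± SD, n = 4) and the P2WT libraries 48.7 ± 2.30, while P2H2KO held 52.9 ± 4.29 and P2H2WT 52.4 ± 3.16. Epas1 was at 12.2 ± 8.15 CPM in P2KO, 10.02 ± 1.36 in P2WT, 5.62 ± 2.13 in P2H2KO and 3.57 ± 1.03 in P2H2WT. It thus differed between the control groups of the 2 lines, by 1.49 on the log2 scale (SE 0.194, edgeR adjusted p = 0.00764) and without overlap. Whole-gene counts do not show whether a floxed exon was lost, so genotypes below are those of the labels. Neutrophil markers were present in every library, with Ly6g between 83.8 and 266.1 CPM. Summed over each list, 10 mature neutrophil genes took 15250 to 41930 CPM and 6 late granule genes 20060 to 48800 CPM. But 10 erythroid markers together took 25780 to 52760 CPM, and 10 cell cycle genes took 3804 to 6598 CPM. In bulk RNA, fewer cells of a type and less RNA per cell cannot be told apart.

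The promoters of 8 of the 9 members were matched in RefSeq (GRCm38.p6). HIFs bind an RCGTG core, so ACGTG and GCGTG were searched on both strands in the 250 bases before each start with overlapping matches counted each. Of 32851 promoters in that table, 16.6% held ACGTG, 28.2% held GCGTG and 38.6% held at least 1 of them. Cs, which makes citrate from acetyl-CoA and oxaloacetate, held neither, and nor did Idh3b and Sucla2. Ogdh held both in its first listed promoter, Idh3g held 1 of each, Suclg1 held 3 GCGTG, and Fh1 and Mdh2 held 1 GCGTG each. Pdk1, which differed between genotypes below, held 1 GCGTG in the first of its 2 listed promoters and none in the second. Of the glycolytic genes called below, Pfkl and Aldoc held GCGTG and Tpi1 held neither core. The 4 sequences below let a reader set members with and without the core beside Pdk1. They run 5′ to 3′ on the strand of the gene, and capitals mark each match (CACGT and CACGC are the cores on the other strand). They lie at chr10:128337477-128337726 on the plus strand (Cs), chr11:6291347-6291596 on the plus strand (Ogdh), chrX:73786898-73787147 on the minus strand (Idh3g) and chr2:71872974-71873223 on the plus strand (Pdk1).
Cs: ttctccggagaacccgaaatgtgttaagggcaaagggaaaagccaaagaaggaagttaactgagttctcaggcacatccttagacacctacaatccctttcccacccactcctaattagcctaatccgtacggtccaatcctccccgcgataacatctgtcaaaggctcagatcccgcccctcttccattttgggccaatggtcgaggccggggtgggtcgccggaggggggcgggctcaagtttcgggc
Ogdh: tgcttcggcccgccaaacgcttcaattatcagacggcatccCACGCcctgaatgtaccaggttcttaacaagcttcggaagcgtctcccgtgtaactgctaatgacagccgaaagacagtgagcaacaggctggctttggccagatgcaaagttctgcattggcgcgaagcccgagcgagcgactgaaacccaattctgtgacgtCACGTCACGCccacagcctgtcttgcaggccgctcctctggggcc
Idh3g: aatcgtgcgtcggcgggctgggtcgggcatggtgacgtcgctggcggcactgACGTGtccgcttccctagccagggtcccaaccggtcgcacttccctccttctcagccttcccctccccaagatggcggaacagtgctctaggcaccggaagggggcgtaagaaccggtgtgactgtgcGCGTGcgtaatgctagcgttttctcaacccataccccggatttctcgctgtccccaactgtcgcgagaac
Pdk1: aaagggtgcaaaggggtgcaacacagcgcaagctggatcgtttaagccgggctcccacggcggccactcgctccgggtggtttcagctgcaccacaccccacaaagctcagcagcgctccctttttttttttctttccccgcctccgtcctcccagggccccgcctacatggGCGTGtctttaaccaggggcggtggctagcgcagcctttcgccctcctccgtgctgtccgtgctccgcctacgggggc
A match in these windows is a run of letters and not a measured binding site.

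The members differed more from one another in level than from group to group. Mdh2, the malate dehydrogenase that closes the cycle, had the highest level per length, at 75.3 ± 5.25 CPM per kb of exon (mean ± SD over 16 libraries), where the length is that of the exons merged over all GENCODE M21 transcripts. Ogdh, the first subunit of the 2-oxoglutarate dehydrogenase complex, followed at 70.4 ± 3.53 CPM per kb and lay below Mdh2 in 12 of 16 libraries, so that the ranges of these neighbours overlapped. Citrate synthase (Cs) came next at 48.3 ± 2.21 CPM per kb and lay below Ogdh in all 16 libraries without overlap. Idh3g followed at 39.0 ± 2.49 CPM per kb, below Cs in every library although its highest library (45.6) passed the lowest of Cs (44.8). Fumarase, encoded by Fh1, had 21.7 ± 1.27 CPM per kb and Idh3b 21.0 ± 1.04, with Fh1 higher in 13 of 16 libraries and overlapping ranges. Idh3a stood at 14.01 ± 1.25 CPM per kb. The subunits of succinyl-CoA ligase closed the order, with Sucla2 at 11.5 ± 0.536 and Suclg1 at 11.3 ± 0.746 CPM per kb, and Sucla2 was the higher in only 9 of 16 libraries. The order of the 9 levels per length is one of mRNA, and merged exon lengths exceed those of any single transcript.

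**Figure D1:**
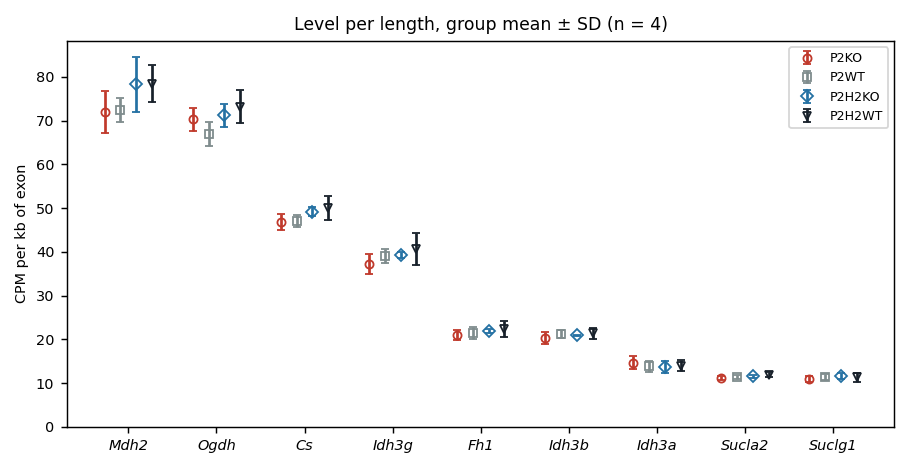
Level of each member per length (vertical axis, CPM per kb of merged exon) for each group as mean ± SD of 4 libraries, with members ordered by their mean over all libraries. Mdh2 and Ogdh sit at 75.3 and 70.4 CPM per kb, Sucla2 and Suclg1 at 11.5 and 11.3, and the 4 groups of a member lie close to one another.

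The lowest count of any member in any library was 1032 (Sucla2), and counting error alone would give a coefficient of variation between 1.0% (Ogdh) and 2.90% (Sucla2). Between the lowest and the highest of the 16 libraries the members differed by between 1.21-fold (Cs, Ogdh, Sucla2 and Suclg1) and 1.35-fold (Idh3g). The coefficient of variation over the libraries, counting error included, ran from 4.58% for Cs to 8.93% for Idh3a, against a median of 9.67% over 4607 genes with means of 40 to 400 CPM. Cs varied less than most of those genes, with 7.4% of them below it, and Idh3a varied like a typical one, with 44.3% below it.

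Cs spans chr10:128337734-128362479 on the plus strand of GRCm38. Its mRNA was at 284.9, 268.4, 270.2 and 258.6 CPM in the P2KO libraries and at 264.3, 266.3, 279.1 and 278.9 CPM in the P2WT libraries. The ranges overlapped almost wholly, and the log2 fold change was 0.0049 (SE 0.0613, adjusted p = 1, edgeR quasi-likelihood test). In the double-deficient line Cs was at 291.0, 277.1, 285.2 and 284.1 CPM in P2H2KO and at 281.7, 282.0, 313.6 and 281.4 CPM in P2H2WT. A single control library stood above the other 7, and the log2 fold change was −0.0126 (SE 0.0686, edgeR adjusted p = 0.9999).

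The NAD-linked isocitrate dehydrogenase is built from a catalytic subunit (Idh3a) and the subunits encoded by Idh3b and Idh3g. Idh3a (chr9:54586334-54604661, plus strand) showed the largest log2 fold change of any member in P2KO against P2WT, 0.10 (SE 0.0863, edgeR adjusted p = 1). It read 80.5, 77.7, 64.0 and 75.3 CPM in P2KO and 62.0, 67.5, 76.4 and 74.1 CPM in P2WT. High and low libraries occurred in both groups, and the lowest P2KO library lay below 3 of the 4 controls. In P2H2KO it read 76.1, 73.3, 62.2 and 64.1 CPM, and in P2H2WT 74.0, 75.2, 72.5 and 62.0 CPM, again with full overlap and a log2 fold change of −0.0282 (SE 0.0940). Idh3b (chr2:130279309-130284547, minus strand) lay between 63.2 and 77.8 CPM over all 16 libraries, with log2 fold changes of −0.0564 (SE 0.0621) in the P2 line and −0.0185 (SE 0.0613) in the P2H2 line. Idh3g (chrX:73778963-73786897, minus strand) lay between 91.2 and 123.1 CPM, with log2 fold changes of −0.0598 (SE 0.0633) and −0.0414 (SE 0.0744). The ratio of Idh3b to Idh3g per length was the steadiest among the 3 subunits, at 0.538 ± 0.0205 over 16 libraries. The ratio of Idh3a to Idh3b was 0.669 ± 0.0575 and ranged from 0.587 to 0.747, with 0.723 ± 0.0300 in P2KO and 0.649 ± 0.0480 in P2WT. These ratios are given as descriptions and were not tested.

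Ogdh (chr11:6291633-6356642, plus strand) read 396.1, 387.8, 363.1 and 388.0 CPM in P2KO and 356.3, 348.6, 379.1 and 377.9 CPM in P2WT. Of its P2KO libraries 3 lay above all controls and 1 lay among them, and the log2 fold change was 0.0838 (SE 0.0657, edgeR adjusted p = 1). In P2H2KO it read 400.9, 397.8, 369.5 and 385.4 CPM, and in P2H2WT 394.8, 409.2, 420.4 and 374.0 CPM, a difference of −0.0271 (SE 0.0737) on the log2 scale. Dlst and Dld, the other subunits of the same complex, had log2 fold changes of 0.0111 (SE 0.0599) and 0.0368 (SE 0.0611) in the P2 line.

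Succinyl-CoA ligase makes ATP or GTP from succinyl-CoA, and Suclg1 encodes the subunit common to both forms while Sucla2 encodes the subunit of the ATP-forming one. Suclg1 (chr6:73248382-73276911, plus strand) read 55.0, 50.8, 48.3 and 48.0 CPM in P2KO and 50.3, 51.4, 50.9 and 57.0 CPM in P2WT. Its log2 fold change there was −0.0391 (SE 0.0635). In P2H2KO it read 52.2, 51.2, 52.9 and 58.1 CPM and in P2H2WT 54.7, 48.3, 58.0 and 48.4 CPM, a difference of 0.0490 (SE 0.0812) on the log2 scale and the largest positive one of any member in that line. Each of the 4 groups thus held at least 1 library near 55 CPM or above, as well as lower ones. Sucla2 (chr14:73525319-73596142, plus strand) lay between 41.6 and 50.2 CPM, with log2 fold changes of −0.0200 (SE 0.0581) and −0.0307 (SE 0.0646). Suclg2, the subunit of the GTP-forming ligase, was the scarcer partner: Sucla2 exceeded it 2.80 ± 0.259-fold per length over the 16 libraries, with group means between 2.76 and 2.83. Some reads of Suclg2 could belong to its pseudogene Gm15163 (98.9% identity over 1302 bases), which held 2 to 8 counts per library.

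Fh1 (chr1:175600374-175625635, minus strand), the fumarase whose loss in tumours raises HIF levels through fumarate, lay between 66.4 and 83.05 CPM. Its difference on the log2 scale was −0.0161 (SE 0.0601) for P2KO against P2WT and −0.0171 (SE 0.0711) in the P2H2 line. Mdh2 (chr5:135778480-135790398, plus strand) read 277.0, 243.7, 264.4 and 241.0 CPM in P2KO and 267.4, 247.1, 265.1 and 253.0 CPM in P2WT. It read 282.3, 250.3, 278.1 and 304.7 CPM in P2H2KO and 270.7, 262.7, 294.4 and 289.5 CPM in P2H2WT. The groups overlapped in both lines, with log2 fold changes of 0.0038 (SE 0.0733) and 0.0120 (SE 0.0823).

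**Figure D2:**
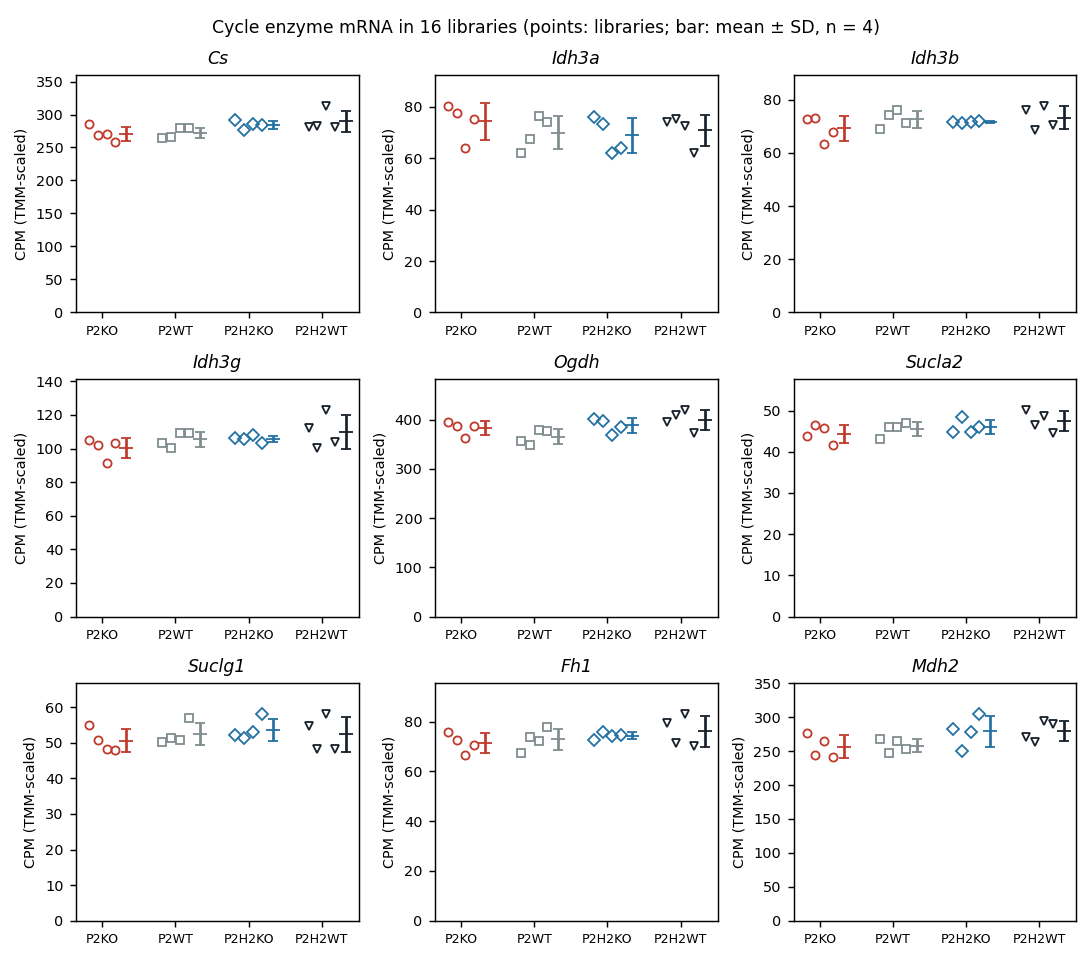
CPM (vertical axis, from 0) of each member in each library (points) by group, with the group mean ± SD (n = 4) at the right of the points. The deficient and wild-type points overlap for all 9 members in both lines, as for Cs, which lies between 258.6 and 313.6 CPM throughout.

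In P2KO against P2WT, 0 of the 9 members passed the test (edgeR quasi-likelihood, adjusted p under 0.05 over 13734 genes), 0 had an unadjusted p under 0.05 and DESeq2 called 0. Over all genes tested 6 were called, which is 0.0437%, and 3.49% had an unadjusted p under 0.05. The groups did not overlap for 0 of 9 members, against 2.32% of all genes. At backgrounds this low a count of 0 among 9 genes is no result about the members, and the size of each difference and its interval are given instead. The members' log2 fold changes ran from −0.0598 (Idh3g) to 0.10 (Idh3a) with a median of −0.0161, and the median over all genes tested was 0.0198. Of the 9, 4 values were above 0 and 5 below. Their 95% intervals reached no further than −0.20 (Idh3g) and 0.30 (Idh3a).

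In P2H2KO against P2H2WT, 0 of 9 members passed (edgeR), 0 had an unadjusted p under 0.05, DESeq2 called 0, and the groups overlapped for all 9. Over the 13435 genes tested, 10 were called (0.0744%), 2.63% had an unadjusted p under 0.05 and 1.97% did not overlap. The log2 fold changes ran from −0.0414 (Idh3g) to 0.0490 (Suclg1) with a median of −0.0185, against 0.0011 over all genes. The intervals reached no further than −0.24 (Idh3a) and 0.23 (Suclg1).

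The mean of both effects, fitted over all 16 libraries, gave the narrowest intervals. It shares its libraries with the 2 comparisons above and adds no independent evidence. The edgeR test called 0 of 9 members, 0 at an unadjusted p under 0.05 and DESeq2 called 0, while over 14080 genes 24 were called (0.170%) and 3.72% had an unadjusted p under 0.05. The mean log2 fold change was largest in size for Idh3g, at −0.0559 (SE 0.0458, 95% interval −0.15 to 0.0415), and the largest positive one was that of Idh3a, at 0.0311 (SE 0.0651, 95% interval −0.11 to 0.17). For Cs the interval was −0.0922 to 0.0732. A change of the size seen for Pdk1 (0.63) lay outside the interval of each of the 9 members.

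Whether the response differed between the lines was tested as the effect in the P2 line minus that in the P2H2 line. The loss of HIF2 cannot be told apart here from other differences between the 2 lines. The edgeR test called 0 of the 14080 genes (0.00%), and 1.51% had an unadjusted p under 0.05, while DESeq2 also called 0 of 9 members. The differences ran from −0.0994 for Suclg1 (SE 0.101, 95% interval −0.31 to 0.12) to 0.12 for Idh3a (SE 0.130, 95% interval −0.16 to 0.40). These intervals are wider than those of the mean, so that differences between the lines of these sizes were not detectable here.

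**Figure D3:**
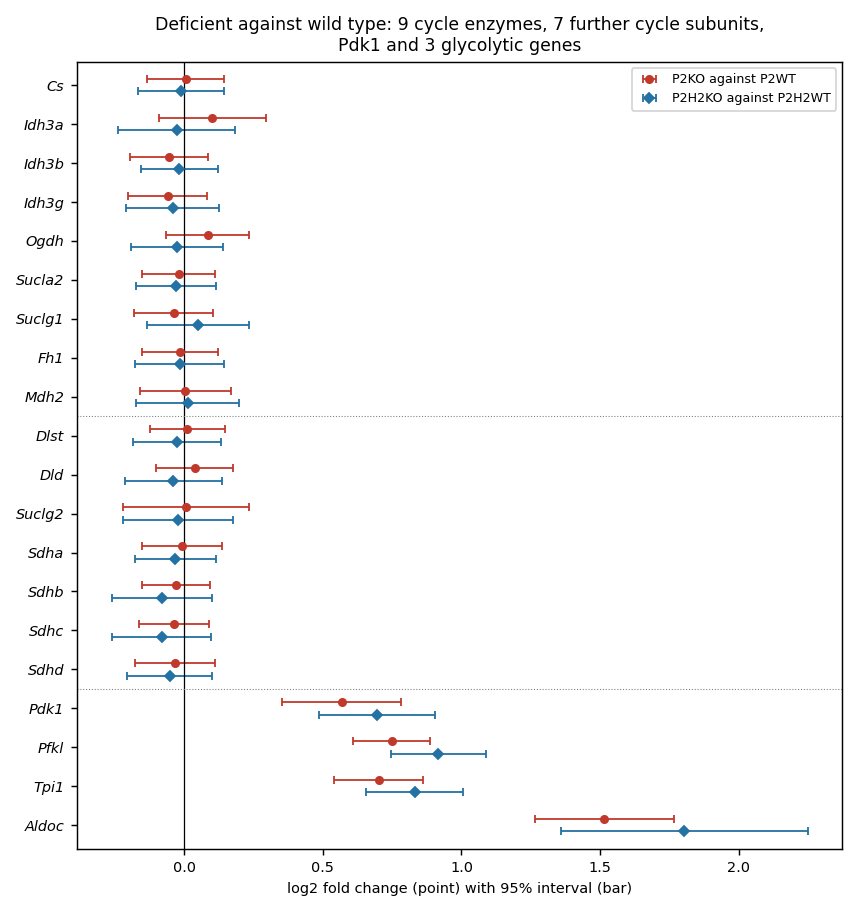
Log2 fold change (horizontal axis) with its 95% interval for the 9 members, 7 further cycle subunits, Pdk1 and 3 glycolytic genes in each line. Every interval of the 16 cycle genes spans 0, while Pdk1, Pfkl, Tpi1 and Aldoc lie between 0.57 and 1.80.

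Of 7 further cycle genes, 0 of 7 passed the edgeR test in either line, 0 had an unadjusted p under 0.05 and DESeq2 called 0. They are Dlst, Dld, Suclg2 and the succinate dehydrogenase subunits Sdha, Sdhb, Sdhc and Sdhd, which also form complex II of the respiratory chain. Their log2 fold changes ran from −0.0373 (Sdhc) to 0.0368 (Dld) in the P2 line and from −0.0816 (Sdhb) to −0.0233 (Suclg2) in the P2H2 line. In the P2H2 line all 7 values were below 0, with the lowest for Sdhb (SE 0.0803) and Sdhc (−0.0813, SE 0.0792). Over all genes tested in that line, 6644 of 13435 were below 0. With the erythroid covariate Dlst (0.016), Dld (0.014) and Suclg2 (0.010) were above 0 there.

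The enzymes around the cycle were listed too, and of the cytosolic and NADP-linked counterparts 0 of 6 tested passed in either line. Idh1, the cytosolic NADP-linked isocitrate dehydrogenase, had log2 fold changes of −0.18 (SE 0.151) and 0.13 (SE 0.256), and Mdh1, the cytosolic malate dehydrogenase, −0.0673 (SE 0.0600) and −0.0647 (SE 0.0581). Every P2H2KO library lay below every P2H2WT library for Mdh1, without a call, and the groups did not overlap for 1.97% of all genes. Of the 16 genes that feed or drain the cycle, 0 passed in either line. Acod1, which turns cis-aconitate into itaconate, had the smallest p of these, at 0.95 on the log2 scale (SE 0.269, adjusted p = 0.9999, edgeR quasi-likelihood test) in the P2H2 line and −0.27 (SE 0.578) in the P2 line. Of 10 tested mitochondrial regulators and 16 genes of mitochondrial structure, 0 passed in either line, with medians of 0.0073 and 0.0273 in the P2 line and 0.0257 and −0.0215 in the P2H2 line.

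Pdk1 and glycolysis gave a contrast in the same libraries. Pdk1 was at 53.5, 46.8, 41.2 and 52.2 CPM in P2KO and at 31.9, 29.8, 36.6 and 33.8 CPM in P2WT, and at 51.0, 50.4, 56.5 and 49.1 CPM in P2H2KO and 35.8, 29.4, 35.3 and 28.5 CPM in P2H2WT. Every deficient library lay above every control of its line. The difference was 0.57 on the log2 scale (SE 0.0955, edgeR adjusted p = 0.210) in the P2 line and 0.70 (SE 0.0934, edgeR adjusted p = 0.0462) in the P2H2 line, and the mean of both was 0.63 (edgeR adjusted p = 0.000185). Of the other genes of pyruvate entry, 0 passed in either line, Pdk3 having 0.11 (SE 0.0684) and 0.0965 (SE 0.0711). Of 16 glycolytic genes, 3 passed the test in each line, namely Aldoc, Pfkl and Tpi1, against 0.0437% and 0.0744% of all genes. Without regard to that test, 15 of 16 had values above 0 in each line. Over all genes tested, 7936 of 13734 were above 0 in the P2 line and 6791 of 13435 in the P2H2 line. The groups did not overlap for 4 glycolytic genes in the P2 line and 8 in the P2H2 line, against 2.32% and 1.97% of all genes. Gapdh, Aldoa, Eno1 and Ldha (named after their values were seen) were among the 8. The median over the 16 genes was 0.26 (log2) in the P2 line and 0.43 in the P2H2 line. Pfkl, a subunit of phosphofructokinase, was 1.68-fold and 1.89-fold higher (edgeR adjusted p = 0.00198 and 0.00233). The call of Pdk1 in the P2H2 line was made in 5 of 16 alternative settings (edgeR or DESeq2 adjusted p up to 0.179, without P2H2WT 14), and leaving out any of its 8 libraries ended it. The call on the mean of both effects was made in all 24 settings (adjusted p up to 0.00113). Pfkl was called in all 16 settings of each line, while Tpi1 in the P2 line and Aldoc in the P2H2 line were called in 11 of 16. These lists were chosen with earlier results of these libraries known, so their direction is no independent evidence.

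Relative to Cs, the enzyme at the entrance of the cycle, Pdk1 stood apart between genotypes in both lines. The ratio of Pdk1 to Cs per length was 0.140, 0.130, 0.113 and 0.150 in P2KO and 0.0896, 0.0831, 0.0973 and 0.0899 in P2WT. It was 0.130, 0.135, 0.147 and 0.128 in P2H2KO and 0.0945, 0.0775, 0.0836 and 0.0751 in P2H2WT. The lowest deficient library (0.113) exceeded the highest control (0.0973), and the ratio was chosen after the values of Pdk1 were seen, so no test is given.

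**Figure D4:**
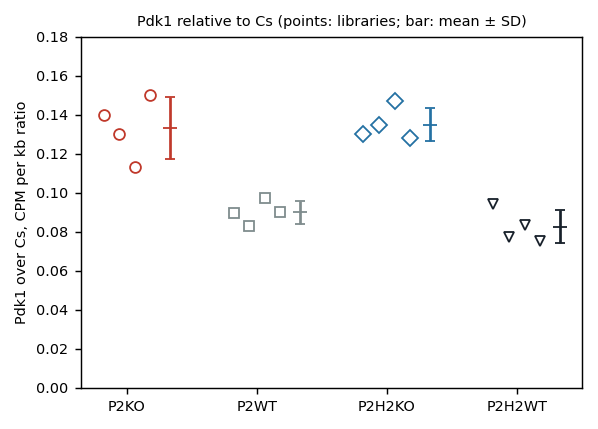
Ratio of Pdk1 to Cs in CPM per kb of exon (vertical axis, from 0) for each library by group, with mean ± SD (n = 4). All 8 deficient libraries sit at 0.113 or above and all 8 controls at 0.0973 or below.

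The control groups of the 2 lines were also compared with each other. In P2WT against P2H2WT the edgeR test called 166 of 13593 genes (1.22%), 11.4% had an unadjusted p under 0.05, and 7.74% did not overlap; without P2WT 10 the calls numbered 76. Of the members 0 of 9 passed, 0 had an unadjusted p under 0.05 and DESeq2 called 0, while 8 of 9 were lower in P2WT, with a median log2 fold change of −0.0602 against −0.0117 over all genes. Ogdh had the largest, −0.13 (SE 0.0684, edgeR adjusted p = 0.534), followed by Mdh2 at −0.11 (SE 0.0645). Cs was the 1 member whose groups did not overlap, with P2WT at 264.3 to 279.1 CPM and P2H2WT at 281.4 to 313.6 CPM (a difference of −0.0883 on the log2 scale, SE 0.0636, edgeR adjusted p = 0.652), and 1 of 9 is close to the background share. Sdhd, a membrane anchor of succinate dehydrogenase, had −0.15 (SE 0.0618, unadjusted p = 0.0406, edgeR adjusted p = 0.407) without overlap. Line and count table cannot be told apart in this comparison.

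Among libraries, the members moved partly together. The P2H2WT library numbered 16 was the highest of all 16 libraries for 5 of the 9 members, with 1492 CPM summed over the 9, and P2KO 9 and P2KO 6 were the lowest for 4 and 3 members. The summed level was 1321 ± 50.5 CPM in P2KO, 1314 ± 41.3 in P2WT, 1372 ± 27.3 in P2H2KO and 1398 ± 65.6 in P2H2WT (mean ± SD, n = 4). After each group's mean was removed, the 5 protein-coding genes outside all lists whose log2 CPM was most like the mean of the standardised members were Atp5a1 (r = 0.944 over 16 libraries), Atp5g3 (0.931), Ola1 (0.926), Eif4h (0.921) and Slc25a3 (0.917), out of 9613 genes with at least 5 CPM. Atp5a1 and Atp5g3 encode ATP synthase subunits and Slc25a3 the mitochondrial phosphate carrier. Elane (0.943) and Ms4a3 (0.932), early granule stage genes of the marker lists, were as alike as these. The rest of that list was less alike, with Mpo at 0.902, Ctsg at 0.835, Prtn3 at 0.832 and Prss57 at 0.799. Serpinb1a of the same list went the other way, at −0.266. Of the members themselves Fh1 was most like their mean (0.895), and Mdh2 least (0.254).

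The members also differed in which maturation genes they moved with. Of 36 relations between the 9 members and 4 marker lists over the 16 libraries, 10 had a Benjamini-Hochberg adjusted permutation p under 0.05 (two-sided, Pearson), 5 of them with the early granule list. Suclg1 followed the mean log2 CPM of the 7 early granule genes (Elane, Mpo and others) with r = 0.932 and rho = 0.953 (permutation p = 1e-05 each, the smallest that 100000 permutations can give, adjusted p = 0.00036 each). Without the 2 libraries farthest from the median of the list, P2KO 9 and P2H2KO 17, r was 0.916, and it was 0.955 in the P2 line (exact permutation p = 0.000918) and 0.912 in the P2H2 line (exact permutation p = 0.00327). Only 0.0426% of the 14080 genes tested had an r with that list as high as Suclg1, and 0.426% had one as high as Fh1. For Fh1, r with the same list was 0.767 and rho 0.815 (permutation p = 0.00042 and 0.00025, adjusted 0.00378 and 0.00300), 0.800 without the same 2 libraries, 0.844 in the P2 line (exact permutation p = 0.00987) and 0.650 in the P2H2 line (exact permutation p = 0.0780).

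For Cs, r with that list was 0.662 and rho 0.721 (permutation p = 0.00333 and 0.00239, adjusted 0.0171 and 0.0123), 0.595 without the 2 libraries, 0.859 in the P2 line (exact permutation p = 0.00747) and 0.484 in the P2H2 line (exact permutation p = 0.240). Idh3b and Idh3g had r of 0.620 and 0.627 (adjusted permutation p = 0.0319 and 0.0197) and rho of 0.615 and 0.647 (adjusted permutation p = 0.0482 and 0.0298). Without the same 2 libraries r was 0.614 and 0.727, and neither had an exact permutation p under 0.05 within a line. An r with the early granule list as high as that of Cs was found for 2.11% of genes. The shares were 3.26% for Idh3b and 3.02% for Idh3g.

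Idh3a followed the 10 cell cycle genes with r = 0.848 and rho = 0.885 (permutation p = 8e-05 and 5e-05, adjusted 0.00144 and 0.00090). Without P2H2KO 15 and P2H2KO 17, r was 0.798, and it was 0.831 in the P2 line (exact permutation p = 0.0156) and 0.872 in the P2H2 line (exact permutation p = 0.00367). An r as high as that with the cell cycle list was common, at 7.22% of genes tested. Idh3a also moved with the 10 erythroid genes, with r = 0.746 and rho = 0.747 (permutation p = 0.00076 and 0.00125, adjusted 0.00456 and 0.00900), 0.661 without P2KO 6 and P2H2KO 15, 0.742 in the P2 line (exact permutation p = 0.0343) and 0.837 in the P2H2 line (exact permutation p = 0.00057). An r that high with the erythroid list was found for 8.85% of genes. Ogdh had r = 0.611 and rho = 0.691 with it (permutation p = 0.0116 and 0.00373, adjusted 0.0417 and 0.0168), 0.571 without those 2 libraries, 0.560 in the P2 line (exact permutation p = 0.148) and 0.726 in the P2H2 line (exact permutation p = 0.0367), and 15.9% of genes had an r as high. Which of these lists Idh3a follows was not tested.

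Mdh2 went with the later stage: with the 6 late granule genes (Ltf, Camp and others) its r was 0.765 and rho 0.756 (permutation p = 0.00069 and 0.00108, adjusted 0.00456 and 0.00900), 0.622 without P2KO 9 and P2H2KO 17, 0.667 in the P2 line (exact permutation p = 0.0733) and 0.784 in the P2H2 line (exact permutation p = 0.0224). An r as high was found for 10.6% of genes. With that list Idh3a had r = −0.793 and rho = −0.726 (permutation p = 0.00029 and 0.00191, adjusted 0.00348 and 0.0115), so that these members ran in opposite directions along it. Without the same 2 libraries r of Idh3a was −0.804, and it was −0.764 in the P2 line (exact permutation p = 0.0292) and −0.881 in the P2H2 line (exact permutation p = 0.0128). An r as low over the 16 libraries was found for 2.95% of genes, and one as large in either direction for 12.1%. Lists and members come from the same libraries and scaling, and the relations were computed after the members' values had been seen.

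**Figure D5:**
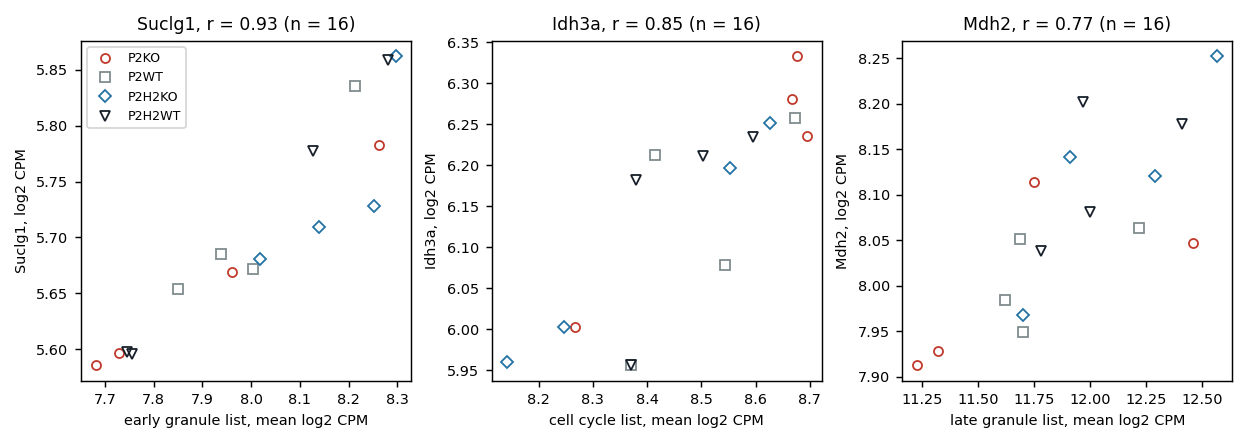
Log2 CPM of Suclg1, Idh3a and Mdh2 (vertical axes) against the mean log2 CPM of the early granule, cell cycle and late granule lists (horizontal axes), 1 point per library and 1 symbol per group. The points rise in each panel, with r of 0.932, 0.848 and 0.765, and each group is spread along the rise.

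No gene of the marker lists passed the edgeR test between genotypes, where 0.0437% of all genes passed in the P2 line and 0.0744% in the P2H2 line. The signs of several lists differed between the 2 lines. Over all genes tested, 7936 of 13734 were above 0 in the P2 line and 6791 of 13435 in the P2H2 line. The genes of a list share the same libraries, so their signs are not separate results. Early granule genes were lower in P2KO for 5 of 7 (median log2 fold change −0.0854) and higher in P2H2KO for 7 of 7 (median 0.19), with summed levels of 2677 to 4135 CPM in P2KO, 3067 to 4168 in P2WT, 3304 to 4161 in P2H2KO and 2671 to 4298 in P2H2WT. Erythroid genes were higher in P2KO for 10 of 10 (median 0.0986) and lower in P2H2KO for 10 of 10 (median −0.18). Their summed levels overlapped in both lines. They were 25780 to 46480 CPM in P2KO and 32500 to 45000 in P2WT, 25940 to 49070 in P2H2KO and 37470 to 52760 in P2H2WT. Cell cycle genes were higher in P2KO for 10 of 10 (median 0.0792) and lower in P2H2KO for 9 of 10 (median −0.0641). Their summed levels also overlapped in both lines. Monocyte and macrophage genes were lower for 11 of 11 in P2KO (median −0.29), with summed levels of 1979 to 2413 CPM against 2510 to 3071 in P2WT. They were lower for 8 of 11 in P2H2KO (median −0.29), where summed levels overlapped, at 2078 to 3705 CPM against 2330 to 3647 in P2H2WT. In that line 6 of 11 were lower with an unadjusted edgeR p under 0.05, against 2.63% of all genes in either direction. For 2 of 11, C1qc among them, the groups did not overlap, against 1.97% of all genes. In the P2 line these counts were 3 and 1 of 11, against 3.49% and 2.32%. T and NK cell genes were lower for 7 of 7 in P2KO (median −0.15) and 5 of 7 in P2H2KO (median −0.0809). Klrb1c (−0.75, edgeR adjusted p = 0.0688) and Gzma (−0.78, edgeR adjusted p = 0.210) did not overlap between the P2 groups, against 2.32% of all genes. B cell genes were higher for 6 of 7 in P2KO (median 0.0496) and lower for 7 of 7 in P2H2KO (median −0.35). Mature neutrophil genes were lower for 6 of 10 in P2KO (median −0.0073) and higher for 10 of 10 in P2H2KO (median 0.21). No marker of these lists was at 0 in every library. With the early granule score as a covariate all 9 members had log2 fold changes below 0 in the P2H2 line, down to −0.11, and 0 were called. In the P2 line 5 of 9 were above 0 with that covariate, with a median of 0.0077. All 9 were above 0 in the difference of effects with that covariate, from 0.010 to 0.17. Their median was 0.044, against −0.010 over all genes tested. Of the 9, 0 had an unadjusted edgeR p under 0.05, and the lowest edgeR adjusted p was 0.9998. The members moved partly together, so these signs are not 9 separate results. The part of the other marker lists in the members' values was not tested beyond the erythroid covariate, under which 0 members were called in either line.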

How the data were processed

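RNA of 16 mouse libraries was analysed from 2 count tables, 1 per line. The authors deposited raw counts of reads per Ensembl gene, made with HTSeq on mm10 per the submitters' processing notes. The aligner, versions and strand setting are not given in the sources used here. Groups and replicate numbers came from the titles. The members and gene lists were chosen with earlier results of these data known.

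Counts were fitted with edgeR 4.0.16 (filterByExpr, TMM, glmQLFit robust, glmQLFTest, two-sided, Benjamini-Hochberg over all genes tested, threshold 0.05), 8 libraries per comparison within a line or between controls, and 16 for the difference and mean of effects. CPM came from a TMM fit of all 16 libraries, and log2 CPM used a prior count of 2. Intervals are 95% quasi-likelihood intervals. Totals were 23450746 to 28601284 counts per library. The fits were tested on simulated data whose changes were all larger than the log2 fold change of any member or of Pdk1. Changes as small as those of the members were not simulated. Exon lengths and coordinates came from GENCODE M21, and copies were sought with blastn 2.17.0.

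Named were the 9 members, 7 further cycle genes (1 listed gene is not reported here), up to 4 genes per other list with the smallest p within a line, Egln1, Epas1 and the 5 genes most alike in pattern. Ratios and relations to marker lists were chosen after the data were seen. Relations used 100000 permutations, or all 40320 pairings within a line. Alternatives were DESeq2 1.42.0, a floor of 10 counts per library or no filter at all, scaling by RLE or the upper quartile, covariates (title suffix m or f, early granule score, erythroid score) and leaving out each library.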

Additional observations from a re-analysis of the deposited data

Results flagged for a closer look

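Of 64 sets of 4 libraries examined for the 16 cycle genes (1 per gene and group), 4 held a library far from the other 3 by Dixon's test at its 95% level, and chance flags about 1 in 20 such sets. Cs stood at 313.6 CPM in P2H2WT 16, with the other 3 controls between 281.4 and 282.0. Suclg1 stood at 57.0 CPM in P2WT 7, with the others between 50.3 and 51.4. Sdha stood at 236.4 CPM in P2WT 10, with the others between 260.1 and 264.2. Sdha also stood at 246.0 CPM in P2H2KO 17, with the others between 257.4 and 258.6.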

How the results depend on the processing

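No paired analysis was possible because no replicate number is shared between groups. No member and none of the 7 further cycle genes was called under any of the settings. Leaving out a library turned the direction of 73 of 504 member values and 46 values of the further cycle genes (346 others kept theirs), and the other settings turned 41 of 360 and 14 of 280, with 0.101 the largest turned value in size. Counts of genes called moved more: with DESeq2 they were 23 for P2KO, 42 for P2H2KO, 65 for the mean effect and 419 in the control comparison. With the erythroid covariate they were 11 in the P2 line, 51 for the mean effect and 840 in the control comparison. With the early granule covariate 6 were called in the P2H2 line, and with at least 10 counts in every library 87 in the control comparison. Leaving out a library gave 6 to 9 calls in the P2H2 line (6 without P2H2WT 13), 15 to 30 for the mean effect (15 without P2WT 4) and 76 to 167 in the control comparison, with 76, 77, 96 and 96 without P2WT 10, 3, 4 and 7 and 99 without P2H2WT 16. The cause was not tested.

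With RLE factors the turned values were Cs −0.0050, Mdh2 −0.0057, Suclg2 −0.0041 in the P2 line. Without a filter the turned values were Cs −0.00017, Mdh2 −0.00079 in the P2 line, and Mdh2 −0.000053 in the P2H2 line, and Sucla2 0.011, Fh1 0.0014 in the difference of effects, and Mdh2 −0.0058 in the mean effect. With DESeq2 the turned values were Cs −0.0049, Mdh2 −0.0057, Suclg2 −0.0038 in the P2 line. With the suffix covariate the turned values were Cs −0.0030, Mdh2 −0.0035 in the P2 line, and Mdh2 −0.018 in the P2H2 line, and Idh3g 0.0032, Fh1 0.0075, Mdh2 0.0053 in the difference of effects, and Suclg1 0.00059 in the mean effect, and Suclg1 −0.028, Dld 0.011 in the control comparison. With the early granule covariate the turned values were Fh1 0.0077, Sdha 0.012 in the P2 line, and Suclg1 −0.045, Mdh2 −0.035 in the P2H2 line, and Idh3b 0.010, Idh3g 0.044, Sucla2 0.028, Suclg1 0.017, Fh1 0.077, Mdh2 0.026 in the difference of effects, and Mdh2 −0.0071 in the mean effect, and Suclg1 −0.0060 in the control comparison. With the erythroid covariate the turned values were Suclg2 −0.016 in the P2 line, and Idh3a 0.048, Ogdh 0.0045, Mdh2 −0.0053, Dlst 0.016, Dld 0.014, Suclg2 0.010 in the P2H2 line, and Mdh2 0.0033, Dlst −0.013, Suclg2 −0.044 in the difference of effects, and Mdh2 −0.0041, Dld 0.0052, Suclg2 0.00057 in the mean effect, and Idh3a 0.067, Idh3b 0.0076, Suclg1 −0.032, Dlst 0.0077, Dld 0.046 in the control comparison. With upper-quartile factors the turned values were Sucla2 0.0089, Fh1 0.0015 in the difference of effects, and Suclg1 0.00017 in the mean effect. With at least 10 counts in every library the turned values were Mdh2 −0.0016 in the mean effect.

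Leaving out 1 library at a time turned the sign of the log2 fold changes listed here. In the P2 line they spanned −0.018 to 0.021 (Cs), −0.043 to 0.0051 (Sucla2), −0.043 to 0.016 (Fh1), −0.032 to 0.031 (Mdh2), −0.0072 to 0.033 (Dlst), −0.095 to 0.082 (Suclg2), −0.034 to 0.012 (Sdha). In the P2H2 line they spanned −0.028 to 0.026 (Cs), −0.090 to 0.021 (Idh3a), −0.048 to 0.0095 (Idh3b), −0.082 to 0.015 (Idh3g), −0.057 to 0.026 (Fh1), −0.035 to 0.062 (Mdh2), −0.057 to 0.0083 (Dlst), −0.074 to 0.0034 (Dld), −0.096 to 0.0097 (Suclg2). In the difference of effects they spanned −0.033 to 0.025 (Cs), −0.084 to 0.013 (Idh3g), −0.028 to 0.027 (Sucla2), −0.054 to 0.026 (Fh1), −0.083 to 0.019 (Mdh2), −0.0069 to 0.057 (Dlst), −0.10 to 0.093 (Suclg2), −0.026 to 0.036 (Sdha), −0.015 to 0.073 (Sdhc), −0.042 to 0.044 (Sdhd). In the mean effect they spanned −0.022 to 0.0089 (Cs), −0.028 to 0.024 (Suclg1), −0.027 to 0.032 (Mdh2), −0.028 to 0.0028 (Dlst), −0.024 to 0.013 (Dld), −0.067 to 0.023 (Suclg2). In the control comparison they spanned −0.084 to 0.031 (Idh3a), −0.038 to 0.017 (Idh3b), −0.040 to 0.053 (Suclg1), −0.044 to 0.013 (Dld).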
